A study of Mus musculus with 25 samples.

Results

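Genes outside melanin synthesis that fell together with the pigment genes were followed across 25 mouse melanomas. They are Ptgds, Car14, Gulo, Kcnj13, Slc26a4, Cfap54, Tbx2 and Tbx4, 8 of the 55450 genes in the count table, and 8 of 8 were among the 18031 genes that passed the filter on low counts. They were chosen by their fold change under anti-CTLA-4 antibody in these same tumours, so every difference between treated tumours and controls is given below as a description, without a test. The choice had no stated cut. By log2 fold change of all anti-CTLA-4 tumours against controls, Gulo ranked 1 from the lowest of the 18031 genes, Kcnj13 3, Ptgds 7, Car14 9, Slc26a4 11 and Cfap54 25. Tbx4 ranked 140 and Tbx2 567, so those genes are not among the steepest falls.

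Every tumour grew from B2905, a mouse melanoma line also called M4, in C57BL/6 mice, which have an intact immune system. Dosing was at 10 mg/kg, 2 doses a week for 2 weeks, and began once tumours averaged 75 mm3. The 5 controls received an isotype IgG2b antibody. The other tumours were given anti-CTLA-4, which blocks an inhibitory receptor on T cells, and were classed 10 to 11 days after the last dose: 8 responders had shrunk, 6 stable tumours had kept their size and 6 non-responders had grown. All groups share the 1 cell line, and each library is 1 tumour with its host cells. Outcome was read in the same animals, so the outcome groups were not assigned at random.

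Total counts ran from 8.76 to 34.3 M per library. Protein-coding genes took 23.8% to 74.3% of counts in 7 of the 8 responders, and 82.9% to 89.2% in the other tumours and responder 5. The labels number the libraries group after group, so an effect of that order and of group cannot be told apart. Levels are in CPM, counts per M after TMM scaling of library sizes. Summed CPM of 7 melanocyte markers lay between 10500 and 17110 in controls, 722.6 and 13870 in non-responders, 227.5 and 504.4 in stable tumours, and 303.3 and 722.4 in responders. The melanocyte identity of the controls was thus plain in their markers, which are Mlana, Pmel, Tyr, Dct, Tyrp1, Sox10 and Mitf. All but Sox10 and Mitf are also among the pigment genes used below. The fall of this sum is therefore not a measure of melanocytes separate from the pigment genes. Summed CPM of 4 T cell markers moved the other way, from 5.53 to 15.8 in controls to 55.6 to 130.2 in responders. Summed CPM of 7 fibroblast markers went from 3319 to 6276 in controls to 6960 to 15920 in responders. The part of these shifts in the results below was not tested. In bulk tissue, fewer cells of a type and less RNA per cell cannot be told apart.

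Melanocytes make melanin in melanosomes, where tyrosinase and its relatives oxidise tyrosine while transporters set the ions and pH of the organelle. The transcription factor MITF switches on many of these genes through short promoter motifs of the E-box kind, including the M-box of the tyrosinase family. Melanoma cells can lose this pigment programme while keeping other marks of the lineage such as SOX10, a change long known as dedifferentiation, and pigment proteins are among the classic targets of T cells in melanoma.

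Promoter sequence is shown first, because a motif shared with pigment genes is the feature that can be read directly. RefSeq windows (GRCm38.p6) of 250 bases before the start were found for 5 of the 8 genes, namely Kcnj13, Ptgds, Car14, Slc26a4 and Tbx4, and for 8 of the 13 pigment genes. The Ptgds and Tbx4 windows lie wholly inside the gene body of the annotation used for counting, and so are not upstream of its first start. The M-box core TCATGTG, searched on both strands, was present in 1 of the 5 windows, that of Kcnj13. It was present in 5 of the 8 pigment genes (Tyr, Tyrp1, Dct, Trpm1 and Slc24a5), or 5 of their 10 windows, and in 3.25% of all 32851 windows. In Kcnj13 it reads on the opposite strand, 112 to 106 bases before the start. The window is chr1:87394730-87394979, minus strand, with the match in capitals.
Kcnj13: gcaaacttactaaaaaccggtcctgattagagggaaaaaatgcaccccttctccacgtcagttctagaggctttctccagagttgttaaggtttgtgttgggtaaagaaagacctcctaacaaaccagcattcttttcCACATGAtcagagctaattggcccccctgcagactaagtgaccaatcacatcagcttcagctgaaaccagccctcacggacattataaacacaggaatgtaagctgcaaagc

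The same match is set beside those of 4 pigment genes, each read on the strand that shows TCATGTG (capitals) with 10 bases on each side. Dct holds a pair of matches.
Kcnj13: ttagctctgaTCATGTGgaaaagaatg
Tyr: aaaaagttagTCATGTGctttgcagaa
Tyrp1: ggggagggagTCATGTGctgcctagta
Trpm1: caaatcctcaTCATGTGcccaccccaa
Dct, nearer match: gcacttagggTCATGTGctaacaaaga
Dct, farther match: tttattgggcTCATGTGtcccagccaa

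The match ends 106 bases before the start in Kcnj13, between 16 in Tyr and 41 in Tyrp1 on one side and 136 in Trpm1 and 145 and 226 in Dct on the other. That of Slc24a5, on the opposite strand, ends 7 bases before the start. It is not shown because fewer than 10 bases of its window follow. The shorter E-box CATGTG, which TCATGTG contains, gave the same 1 of 5 windows, 6 of 8 pigment genes (6 of 10 windows) and 12.3% of all windows. The palindrome CACGTG was in 0 of 5 windows, in 3 of 8 pigment genes (3 of 10 windows) and in 6.02% of all windows. Its extended form TCACGTG was in 0 of 5, 1 of 8 (1 of 10 windows) and 3.13%. Neither ACAAT (in 27.7% of all windows), the core bound by SOX proteins, nor AGGTGTGA (1.12%), the T-box element, was in the 5 windows. Ptgds, which of the 8 had the highest correlation with the pigment score outside the non-responders, had none of these letters in its window, chr2:25469750-25469999, minus strand. It is shown for comparison.
Ptgds: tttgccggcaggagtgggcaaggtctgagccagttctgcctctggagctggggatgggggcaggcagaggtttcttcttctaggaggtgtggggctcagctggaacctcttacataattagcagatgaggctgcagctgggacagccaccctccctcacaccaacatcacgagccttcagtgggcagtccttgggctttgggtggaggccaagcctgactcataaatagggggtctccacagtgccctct

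A match is a description of letters, and a window without one says nothing about a factor.

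The 3 enzymes are described first. Ptgds encodes lipocalin-type prostaglandin D synthase, which turns prostaglandin H into prostaglandin D and is also secreted as a carrier of small lipids (chromosome 2, 25466709 to 25470046, minus strand, GRCm38). In controls 1 to 5 it stood at 355.6, 309, 211.4, 391.8 and 388.1 CPM. Non-responders 1, 2 and 3 held 200.9, 109.4 and 90.2 CPM, and non-responders 4, 5 and 6 held 6.11, 2.04 and 10.6 CPM. Stable tumours ran from 0.112 to 3.95 CPM with a median of 1.49, and responders from 0 to 4.99 CPM with a median of 0.975. Every control lay above every treated tumour, and Ptgds was the 1 gene of the 8 in which controls and non-responders did not overlap (1.41% of all genes had every control above every non-responder). The mean level was 241.3-fold higher in controls than the pooled responder level (95% exact Poisson interval 205.6 to 285.3, counting error only).

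Car14 encodes a membrane-anchored carbonic anhydrase whose active site faces outward and interconverts carbon dioxide and bicarbonate (chromosome 3, 95897768 to 95904691, minus strand). Its controls held 46.1, 47.5, 32.3, 100.1 and 67.9 CPM. Non-responders 1 to 3 held 47.5, 36.9 and 15.9 CPM and non-responders 4 to 6 held 1.09, 1.17 and 0.382 CPM, so non-responders 1 and 2 lay within the control range and the other 4 below it. Stable tumours lay between 0.112 and 0.392 CPM (median 0.275). Responders lay between 0 and 0.723 CPM (median 0.0615), with 22 counts in all over the 8 libraries. Car14 overlaps the end of Aph1a, a gamma-secretase subunit gene on the opposite strand with a mean of 77.8 CPM.

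Gulo encodes L-gulonolactone oxidase, the last enzyme of vitamin C synthesis in mice, normally a liver enzyme (chromosome 14, 65986786 to 66009207, minus strand). Its level in controls was uneven, at 1.3, 0.442, 0.548, 7.53 and 56.4 CPM, so that control 5 alone set most of the mean of 13.2 CPM. Non-responders 1 and 3 held 5.27 and 1.42 CPM, and the other 4 held at most 0.0832 CPM. Responders held 0 counts in 8 of 8 libraries and stable tumours held 1 count in all. Against a floor of 3 counts over the responder group, the control mean was at least 479-fold higher. For stable tumours the ratio was 1528-fold, with a counting interval of 274.2 to 60350. Without control 5 they were at least 88.9-fold and 283.4-fold. Hepatocyte markers were low: the 4 summed to 1.29 to 4.36 CPM in controls, 0 to 1.12 CPM in stable tumours and 0 to 0.1 CPM in responders. In controls Alb, Apoa1 and Cyp3a11 had medians under 0.1 CPM, so the sum there was mostly Ttr. In stable tumours Apoa1, Ttr and Cyp3a11 had such medians. The 1 marker that passed the filter stood at 2.066, 4.127, 1.174, 4.246 and 2.535 CPM in controls 1 to 5. It ran from 0.0405 to 0.811 CPM in non-responders. In stable tumours it reached at most 0.0488 CPM, and in every responder it was 0. The part of these markers in the result was not tested.

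The next pair moves ions across membranes. Kcnj13 encodes Kir7.1, an inwardly rectifying potassium channel known from the retinal pigment epithelium and from the stripe pattern of zebrafish (chromosome 1, 87386363 to 87394729, minus strand). Controls held 21.3, 1.81, 9.51, 19.6 and 57.1 CPM. Non-responders 1 to 3 held 2.35, 4.06 and 1.12 CPM, and non-responders 4 to 6 held 0.121, 0.0416 and 0.268 CPM. No stable tumour passed 0.087 CPM and no responder passed 0.362 CPM. Control 2 fell among the non-responders, and the other 4 controls lay above every treated tumour. Kcnj13 lies inside Gigyf2, a translation regulator gene on the opposite strand with a mean of 83.5 CPM. Markers of retinal pigment epithelium did not move with it: the 4 summed to 3.76 to 6.0 CPM in controls and 1.72 to 13.8 CPM in responders, and Rpe65 had a median under 0.1 CPM in each group.

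Slc26a4 encodes pendrin, an exchanger of chloride, iodide and bicarbonate known from the inner ear and thyroid (chromosome 12, 31519827 to 31559969, minus strand). Its controls held 4.4, 1.36, 1.76, 18.5 and 6.57 CPM. Non-responders 1 to 3 held 5.68, 1.73 and 2.32 CPM, and non-responders 4 to 6 held 0.0405, 0.0416 and 0 CPM. Responders and stable tumours held 3 counts each over all their libraries. The control mean exceeded the pooled responder level 236.1-fold (counting interval 80.8 to 1145) and the pooled stable level 250.9-fold (85.8 to 1216). Control 4 weighed on both, and without it they were 127.6-fold and 135.5-fold. The non-responders again fell on both sides of a wide gap.

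Cfap54 encodes a protein of the central apparatus of motile cilia and sperm tails, and is the longest gene of the set, with 306000 bases on chromosome 10 (92775619 to 93081618, minus strand). Controls held 174.4, 49.1, 147.9, 153.5 and 144.1 CPM, with control 2 apart from the rest. Non-responders 1 to 3 held 38.1, 138.1 and 145.9 CPM and non-responders 4 to 6 held 5.83, 7.41 and 1.11 CPM. Stable tumours lay between 0.261 and 0.824 CPM (median 0.435). Responders split: responders 6, 7 and 8 held 7.37, 7.23 and 2.9 CPM, and the other 5 held 0.315 to 1.12 CPM. Every non-responder lay above every stable tumour, as in 2.94% of all genes, and no other gene of the 8 showed that. Non-responders and responders overlapped for 8 of 8 genes, and only 2.94% of all genes had every non-responder above every responder. Multiciliated cell markers did not fall with Cfap54: the 5 summed to 6.05 to 14.1 CPM in controls and 8.06 to 17.8 CPM in responders, with Ccdc153 at 0 in every tumour and Dnah5 under a median of 0.1 CPM.

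Tbx2 and Tbx4 encode T-box transcription factors and sit side by side on chromosome 11 (85832551 to 85841948 and 85886422 to 85916097, plus strand). Tbx2 is a repressor known in the melanocyte lineage for holding back senescence, and Tbx4 patterns the hindlimb and lung. Tbx2 held 174, 135.4, 156.6, 202.4 and 220.7 CPM in controls. Non-responders held 141.7, 119.7, 136.7, 76.2, 95.2 and 65.8 CPM in order of number. Stable tumours kept 26.0 to 70.2 CPM (median 40.6) and responders 15.0 to 92.9 CPM (median 63.5). Tbx2 thus stayed at 15.0 CPM or more in every tumour, which no other gene of the 8 did, and non-responders 1 and 3 lay above control 2. Tbx4 held 8.4, 2.99, 7.0, 8.96 and 4.55 CPM in controls, and 4.38, 8.04, 2.92, 0.93, 1.17 and 0.803 CPM in non-responders 1 to 6. Stable tumours held 0.239 to 0.883 CPM and responders 0 to 0.899 CPM, so Tbx4 fell to a low level that most libraries still registered.

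**Figure D1:**
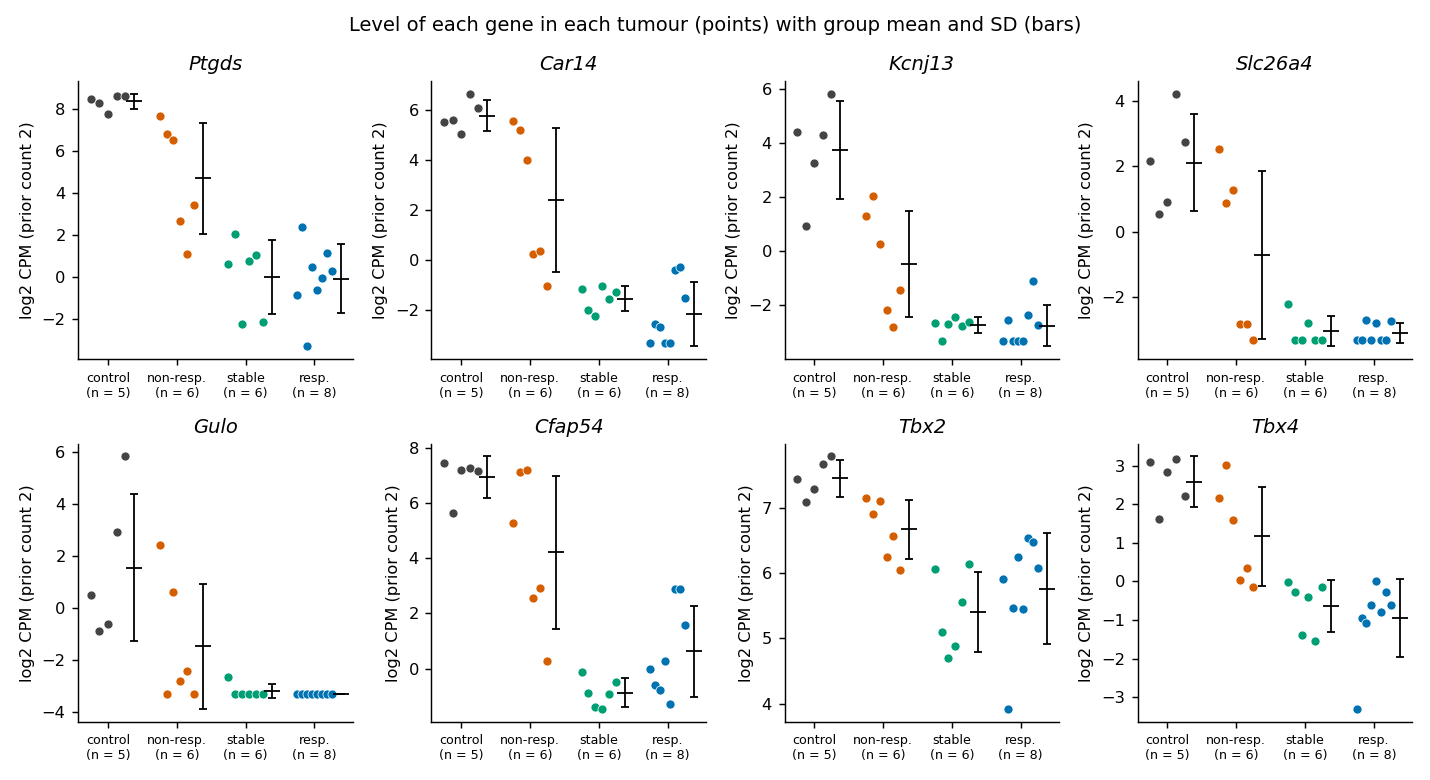
Level of each gene in log2 CPM (prior count 2, vertical axis) in each of the 25 tumours (points), by group, with the group mean and SD (bars). The non-responders fall into a high and a low part for each gene except Gulo and Tbx2, where the parts are less distinct, and stable tumours and responders overlap for all 8 genes.

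Per kilobase of exon, the mean level in controls ran from Ptgds at 200.8 CPM per kb through Tbx2 at 49.0, Car14 at 23.1, Kcnj13 at 17.2, Cfap54 at 9.14, Gulo at 5.85 and Slc26a4 at 2.1 to Tbx4 at 1.88. In responders the order changed: Tbx2 stood at 16.8 CPM per kb, Ptgds at 0.853, Cfap54 at 0.178, Tbx4 at 0.147, Car14 at 0.0864, Kcnj13 at 0.0566 and Slc26a4 at 0.00598, with Gulo at 0. Controls also differed among themselves. The highest control exceeded the lowest 1.63-fold for Tbx2 and 1.85-fold for Ptgds, but 31.6-fold for Kcnj13 and 127.5-fold for Gulo. Control 2 was the lowest control for 6 of the 8 genes (Gulo, Kcnj13, Slc26a4, Cfap54, Tbx2 and Tbx4) and control 3 for the other two.

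By group mean the order was the same throughout: controls highest, non-responders next, and stable tumours and responders lowest with overlapping ranges. Every control lay above every responder for 8 of 8 genes (15.2% of all genes) and above every stable tumour for 8 of 8 (17.2%). The choice of genes fixes that direction. Fitted log2 fold changes of responders against controls were -7.85 (SE 0.98) for Ptgds, -8.08 (SE 1.0) for Car14, -8.21 (SE 0.99) for Kcnj13, -7.64 (SE 1.2) for Slc26a4, -5.69 (SE 0.91) for Cfap54, -3.58 (SE 0.51) for Tbx4 and -1.55 (SE 0.31) for Tbx2. For genes near 0 these depend on the prior count of the fit, so pooled ratios are given above for Ptgds and Slc26a4, and for Gulo only those. The control mean exceeded the pooled responder level 290.2-fold for Car14 (counting interval 191.6 to 463) and 339.1-fold for Kcnj13 (164.6 to 843.3). Without control 4 the Car14 ratio was 239.2-fold, and without control 5 the Kcnj13 ratio was 202.4-fold. Non-responders against controls gave -4.06 (SE 0.83) for Kcnj13, -2.25 (SE 0.85) for Ptgds, -2.04 (SE 0.9) for Slc26a4, -1.79 (SE 0.78) for Car14, -1.25 (SE 0.84) for Cfap54, -1.08 (SE 0.51) for Tbx4 and -0.75 (SE 0.33) for Tbx2. These comparisons share the 5 controls.

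**Figure D2:**
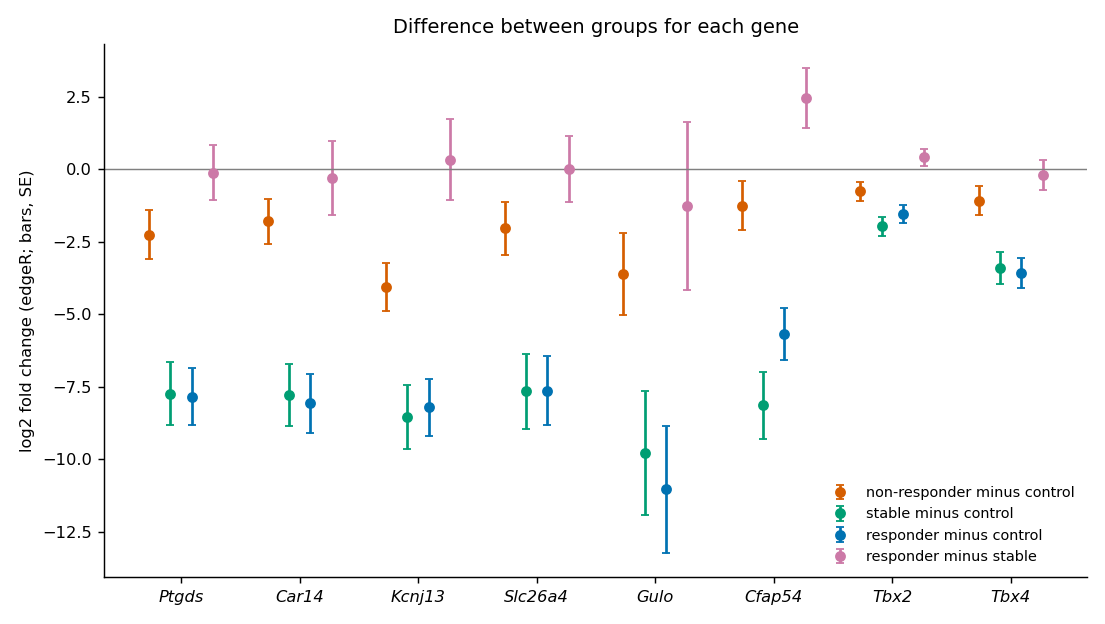
Fitted log2 fold change (vertical axis, bars are SE) of each gene for non-responder, stable and responder tumours against controls, and for responder against stable tumours. The differences from controls chose the genes and carry no test, and those between responders and stable tumours lie around 0 except for Cfap54.

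The 13 pigment genes fell in the same comparison, and 13 of 13 were called lower (adjusted p under 0.05) in all anti-CTLA-4 tumours against controls, where 23.4% of all genes were called lower. The pigment list itself was known from earlier results of these tumours to fall. Their median log2 fold change was -4.17 beside 0.068 for all genes, and the 8 genes followed here had a median of -5.83. Slc45a2, a melanosome transporter, had -5.95 (SE 0.67) and Dct, a melanin enzyme, -5.61 (SE 0.78). The smallest falls were in the melanosome transport genes Mlph, at -0.63 (SE 0.24), and Rab27a, at -2.27 (SE 0.33). Mlph lost its call under the stricter low-count filter, in limma and without control 3, 4 or 5. Of 12 regulators of the lineage, 6 were called lower, 1 (Foxd3, at 0.48, SE 0.18, named after its value was seen) higher and 5 neither. Mc1r, the melanocortin receptor, was lowest at -2.02 (SE 0.29) and Mitf followed at -1.97 (SE 0.22). At the other end Lef1, at 0.75 (SE 0.36), and Snai2, at 0.59 (SE 0.28), were not called. Lef1 was called without non-responder 3 or control 3, and Snai2 without responder 1, non-responder 6 or both responders 1 and 4 (adjusted p = 0.0384), and when each library's protein-coding share entered the model (0.033). Sox10, named because it marks the lineage, went from 356.5 CPM in controls to 201.8 CPM in responders, at -0.71 (SE 0.15).

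Responders and stable tumours were compared because no gene was chosen for that difference. Only Ptgds, Cfap54, Tbx2 and Tbx4 held enough counts in these groups to pass the filter there. The other 4 (Car14, Gulo, Kcnj13 and Slc26a4) were tested only through their levels in controls and non-responders, so that a missing call says nothing of them. None of the 4 with enough counts was called by edgeR in the fit of all groups (adjusted p under 0.05), where 38.2% of all genes were called. Cfap54 alone passed an unadjusted p of 0.05, as did 48.3% of all genes. Cfap54 was 2.46 log2 units higher in responders (SE 1.03, adjusted p = 0.0631), in whom responders 6, 7 and 8 stood highest. DESeq2 called it (adjusted p = 0.0106, with 40.8% of all genes called), as did edgeR on these groups alone (0.0245, with 33.1% of all genes called) or without responder 3 (0.048), responder 5 (0.0395) or non-responder 6 (0.0371). Over its other alternatives it was not called. limma on the RPKM table called 0 of the 7 genes it holds (34.7% of all genes), and 1, Kcnj13, at an unadjusted p of 0.05 (45.8%). For Ptgds the difference was -0.11 (95% interval -1.94 to 1.72) and for Tbx2 0.42 (-0.17 to 1.0). For Car14 it was -0.29 (-2.78 to 2.2) and for Kcnj13 0.34 (-2.42 to 3.1), intervals wide enough to hold a 4-fold difference either way at the few counts present. The widest interval belonged to Gulo, which had 1 count over both groups.

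A further question was whether the genes followed pigment genes from tumour to tumour once group means were removed. The pigment score of a tumour is the mean log2 CPM of the 13 pigment genes. It lay between 7.8 and 8.72 in controls, 0.85 and 3.32 in stable tumours and 0.001 and 3.93 in responders. Among non-responders it was 6.81, 7.63 and 8.19 in tumours 1, 2 and 3, and 4.67, 4.17 and 3.79 in tumours 4, 5 and 6. Non-responders 1 to 3 lay above non-responders 4 to 6 for 7 of the 8 genes as well, Gulo being the exception because non-responder 2 held no count. The share of all genes with that order was not counted, so the 7 of 8 is a description only. T cell markers ran the other way in the same tumours, at 41.0, 22.5 and 12.3 summed CPM in the first 3 and 74.5, 75.9 and 105.7 in the others. Summed macrophage markers did so too, at 533.1, 458.3 and 365.6 CPM against 1137, 795.7 and 1313 CPM. Their part in the pattern was not tested.

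In an edgeR model with group means and the centred pigment score, 5 of the 8 genes had a positive slope past an adjusted p of 0.05, against 1.68% of all genes. An unadjusted p of 0.05 was passed by 8 of 8, against 17.4% of all genes with a slope of either sign. Per unit of score, Cfap54 rose by 1.28 log2 units (SE 0.14, adjusted p = 3.52e-06), Car14 by 1.48 (SE 0.22, adjusted p = 0.000399), Ptgds by 1.22 (SE 0.21, adjusted p = 0.00185), Kcnj13 by 1.14 (SE 0.25, adjusted p = 0.0111) and Slc26a4 by 1.39 (SE 0.39, adjusted p = 0.0479). Tbx4 had 0.46 (SE 0.14, adjusted p = 0.0639), Tbx2 0.22 (SE 0.086, adjusted p = 0.148) and Gulo 1.54 (SE 0.7, adjusted p = 0.265). Car14, Gulo, Kcnj13 and Slc26a4 passed the filter only through their levels in controls and non-responders. Their slopes thus say little of responders and stable tumours. The 8 genes were chosen as falling with the pigment genes, so the shares of all genes are not an even comparison. Of the pigment genes, which make up the score and so are no independent yardstick, 11 of 13 passed, with slopes from 0.10 in Mlph to 1.65 in Dct.

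The calls did not hold without the non-responders. Shares of all genes in this paragraph count slopes of either sign. Without those 6 tumours, 0 of the 7 genes still tested were called, as were only 0.0567% of all genes, and 4 (Ptgds, Car14, Kcnj13 and Cfap54) passed an unadjusted p of 0.05, against 15.8% of all genes. The slopes of these 4 were 1.28 (SE 0.29) for Ptgds, 0.97 (SE 0.29) for Car14, 1.11 (SE 0.21) for Cfap54 and 1.69 (SE 0.6) for Kcnj13, with adjusted p of 0.127, 0.179, 0.0691 and 0.227. Car14 and Kcnj13 were tested there only through their levels in controls, so their slopes say little of responders and stable tumours. The slope of Slc26a4 went to 0.002 (SE 0.2, adjusted p = 0.998). Its call was also lost on leaving out any 1 of 15 single tumours, with an adjusted p of up to 0.292. It was lost too with no low-count filter (0.0725), protein-coding genes only (0.0504), a median (0.0922) or 5-gene (0.132) score, without responders 1 and 4 (0.0584) and in limma (0.183). That of Kcnj13 was lost without non-responder 2 (adjusted p = 0.054) and in limma (0.264). Tbx4 gained a call in DESeq2 (adjusted p = 0.00589), where 6 of 8 genes were called against 8.31% of all genes, in limma, where 3 of 7 were against 10.7%, and without responder 1, 2, 3 or 5, and Tbx2 without responder 2 (adjusted p = 0.012).

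**Figure D3:**
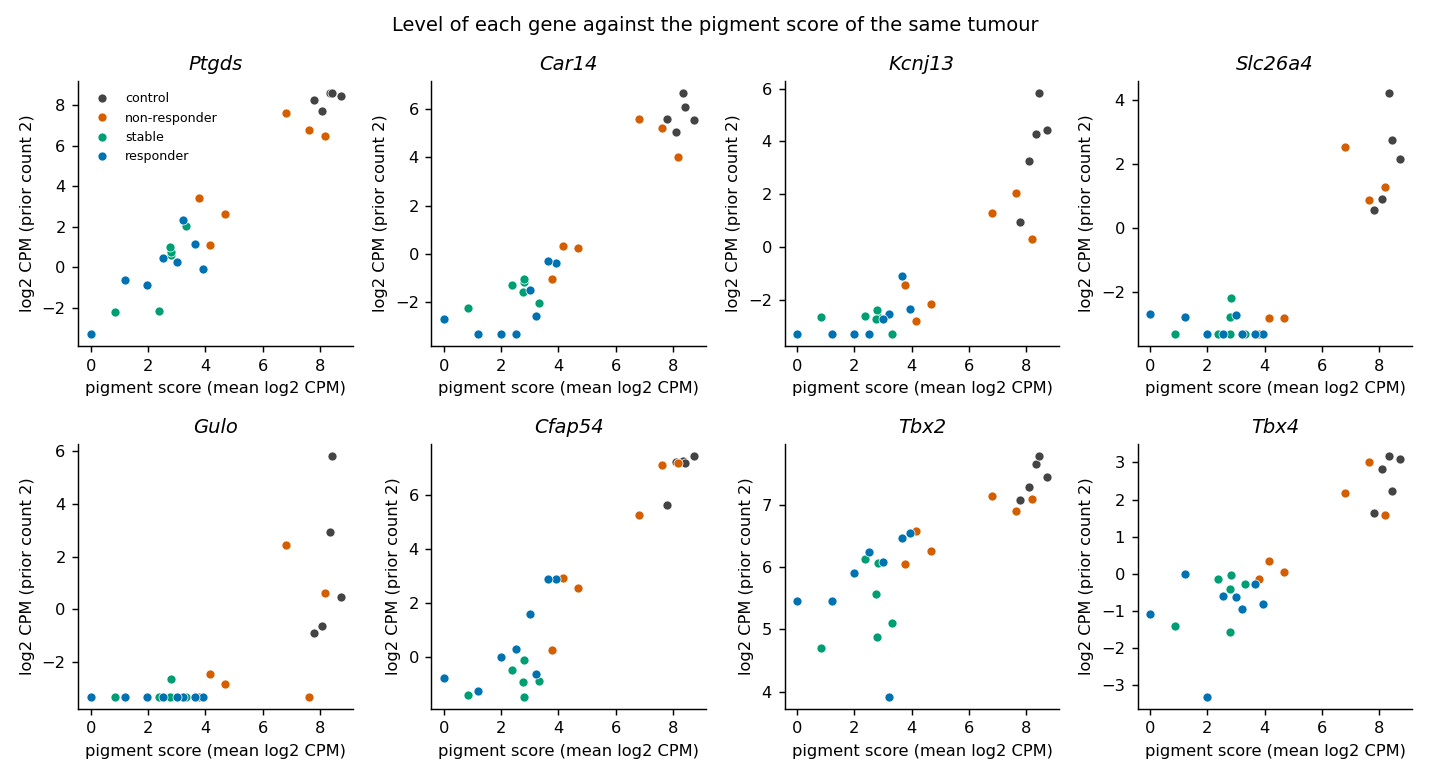
Level of each gene in log2 CPM (prior count 2, vertical axis) against the pigment score of the same tumour (horizontal axis, mean log2 CPM of 13 pigment genes), colours by group. Tumours with a score above 6.8 are the controls and non-responders 1 to 3, and Slc26a4 and Gulo lie flat at their floor below that score.

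Because the non-responders form separate clusters, correlations are given without them, over 19 tumours centred by group, with two-sided permutation p-values from 100000 shuffles within groups. The 8 relations are not adjusted among themselves, and the adjusted values are those of the slopes. For Ptgds, Pearson r was 0.79 (p = 0.0003) and Spearman rho 0.77 (p = 0.0005), and r was 0.54 without the 2 tumours farthest from the median score, responder 3 and stable tumour 3. Cfap54 gave r 0.70 (permutation p = 0.00763), rho 0.66 (p = 0.0104) and r 0.75 without the same tumours. Car14 gave r 0.61 (permutation p = 0.0287), rho 0.60 (p = 0.0197) and r 0.70 without them, from counts of at most 9 in responders and stable tumours. Kcnj13 gave r 0.39 (permutation p = 0.0207), rho 0.48 (p = 0.0355) and r 0.49 without them, from counts of at most 4 in responders and stable tumours. The other 4 had r of 0.28 (Tbx2, permutation p = 0.371), 0.26 (Tbx4, p = 0.379), 0.089 (Gulo, p = 0.392) and -0.007 (Slc26a4, p = 0.959).

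Within responders alone (n = 8), r was 0.82 for Ptgds (exact permutation p = 0.0127), 0.77 for Cfap54 (p = 0.0245), 0.70 for Kcnj13 (p = 0.0488) and 0.68 for Car14 (p = 0.0622). Kcnj13 and Car14 held only 7 and 22 counts over all responders, and 6 and 30 over all stable tumours. Values of r for these genes within either group therefore carry little weight. The Ptgds value fell to 0.42 without responders 3 and 5, so it rests on them. Within stable tumours alone (n = 6), r was 0.83 for Ptgds (exact permutation p = 0.00833) and 0.38 for Cfap54 (p = 0.481), while Kcnj13 gave -0.36 (p = 0.378) and Car14 0.47 (p = 0.386). Slc26a4 gave r -0.66 within responders (exact permutation p = 0.0804) and 0.26 within stable tumours (p = 0.5), from 3 counts in each group. The 13 pigment genes were also taken 1 by 1 over the same 19 centred tumours. The median r was 0.70 for Ptgds (highest with Trpm1, 0.84), 0.59 for Cfap54 (highest with Dct, 0.74), 0.54 for Car14 (highest with Oca2, 0.65) and 0.37 for Kcnj13 (highest with Rab27a, 0.51). It was 0.24 for Tbx2, whose highest r was 0.72 with Mlph, and Ptgds had its lowest with that same gene, at -0.36. Pigment genes share libraries and each other's variation, so these are not separate observations.

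**Figure D4:**
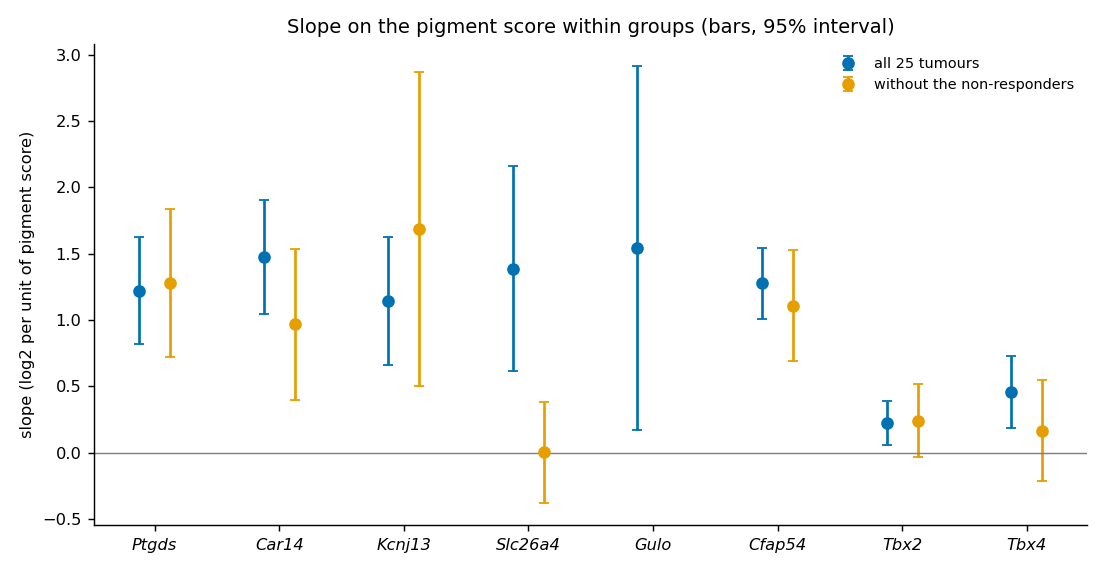
Slope of each gene on the pigment score within groups (vertical axis, log2 per unit of score, bars are 95% intervals), over all 25 tumours and without the 6 non-responders. Slopes of Ptgds, Car14, Kcnj13 and Cfap54 stay near 1 or above in both, that of Slc26a4 drops to 0, and Gulo was too low to be tested without the non-responders. None of the slopes without the non-responders was called. Those of Car14, Kcnj13 and Slc26a4 were tested there only through levels in controls.

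The genes were then ranked for likeness to each of the 8 among 13177 tested genes with a mean of at least 1 CPM, by group-centred Pearson r over the 25 tumours, a description in which the non-responder split carries much weight. The closest genes to Ptgds were 3 pigment genes, Slc45a2 (r 0.89), Tyr (0.84) and Trpm1 (0.83). For Cfap54 they were Ppargc1a, a coactivator of mitochondrial genes (0.94), Slc6a17, a vesicular amino acid transporter (0.94), and Gsta1, a glutathione transferase (0.90). Car14 shared Ppargc1a (0.89) and Slc6a17 (0.88) and had Bfsp2, a lens filament gene, first (0.89). Slc26a4 was closest to Slc12a2, a sodium, potassium and chloride cotransporter (0.91), then to Arhgef11 (0.85) and Tmem144 (0.83).

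Kcnj13 was closest to Esr1, the oestrogen receptor (0.82), Bfsp2 (0.79) and Zfp791 (0.79). Tbx2 was closest to Fam184b (0.91), Dock3 (0.90) and Ak5 (0.90), Tbx4 to Stau2 (0.84), Zfp791 (0.82) and Fam171a1 (0.80), and Gulo to Limd1 (0.80), Hkdc1 (0.75) and Cpne8 (0.74). Among the 8 themselves, r over the 25 centred tumours ran from 0.094 between Tbx2 and Ptgds to 0.87 between Cfap54 and Car14. The adjacent genes Tbx2 and Tbx4 gave 0.31. Only Ptgds had pigment genes in its closest 3.

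Relatives of the 8 genes by family or pathway did not share one direction in all anti-CTLA-4 tumours against controls. Of 98 listed, 57 were tested, 14 were called lower and 22 higher, where 23.4% of all genes were called lower and 27.7% higher, and their median log2 fold change was 0.32. Among 15 carbonic anhydrases and partners tested, 4 were lower and 6 higher: Car6, a secreted form, at -3.53 (SE 0.39) and Car9, the hypoxia-induced form, at -3.43 (SE 0.39), but Car4, a membrane-anchored form, at 3.69 (SE 0.81). In the prostaglandin list 1 of 8 was lower and 6 were higher. The lower one was Hpgds, the haematopoietic prostaglandin D synthase, at -1.91 (SE 0.35), named, outside the rule, because it makes the same product as Ptgds. The 3 largest were Ptgs2, the inducible cyclooxygenase, at 2.32 (SE 0.44), Tbxas1, thromboxane synthase, at 2.07 (SE 0.29), and Ptges, prostaglandin E synthase, at 1.96 (SE 0.31). The other higher genes were Ptgs1, Ptgis and Pla2g4a, so that the enzymes making prostaglandin H, and those turning it into thromboxane, prostacyclin and prostaglandin E, were higher.

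In the ascorbate list 3 of 7 were lower and 1, the transporter Slc23a2, higher at 0.28 (SE 0.08). Ugp2, which makes UDP-glucose, had -1.08 (SE 0.21), Ugdh, which oxidises it, -0.53 (SE 0.13) and Akr1a1, which forms gulonate, -0.51 (SE 0.15), all small beside Gulo. Of 6 inward rectifier channels tested, 2 were lower, Kcnj10 at -2.63 (SE 0.37) and Kcnj8 at -0.88 (SE 0.22). Of 5 SLC26 exchangers, 2 were lower and 1 higher, with Slc26a7 at -2.65 (SE 0.38), Slc26a1 at -1.14 (SE 0.27) and Slc26a11 at 0.57 (SE 0.17), which lost its call with no low-count filter (adjusted p = 0.0634). Of 7 motile cilium genes tested out of 21, 1 was lower, Ccdc40 at -0.78 (SE 0.2), and 2 higher, Cfap74 at 1.91 (SE 0.44) and Spef2, under 1 CPM, at 3.15 (SE 0.59). Cfap74 lost its call in limma (adjusted p = 0.0585). The other 14 were too low to test. Slc23a2, Slc26a1 and Spef2 were named after their values were seen. Of 9 T-box genes, 1 was lower, Tbx20 at -1.91 (SE 0.32), and 6 were higher, led by Tbx21 at 3.56 (SE 0.42) and Eomes at 2.01 (SE 0.45), the T-box factors of lymphocytes, beside the T cell marker rise given above.

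Neighbouring genes were examined for a fall of whole regions. The 5 nearest tested genes on each side of the 8 genes came to 70, since Tbx2 and Tbx4 share theirs. Of these, 23 were called lower (23.4% of all genes were) and 7 higher (27.7% of all genes were). Their median log2 fold change was -0.15 beside 0.068 for all genes. No neighbour with a mean of at least 1 CPM fell by as much as 2 log2 units. Around Cfap54, 6 of 10 were lower, with Lta4h at -1.33 (SE 0.17), Tmpo at -0.99 (SE 0.13), Slc25a3 at -0.70 (SE 0.12) and Nedd1 at -0.59 (SE 0.1). Around Tbx2 and Tbx4, 5 of 10 were lower, with Bcas3 at -0.70 (SE 0.14), Brip1 at -0.58 (SE 0.14), Ppm1d at -0.35 (SE 0.1) and Appbp2 at -0.26 (SE 0.085), which lost its call without control 4 or control 5. The largest fall of any neighbour was that of Bcas3os1, an antisense transcript under 1 CPM, at -4.19 (SE 0.74), a gene chosen after its value was seen.

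Around Ptgds 0 of 10 neighbours were called lower and 3 were higher, including Fut7 at 2.81 (SE 0.41), Traf2 at 0.76 (SE 0.09) and Abca2 at 0.49 (SE 0.09). Around Car14, 4 were lower and 2 higher, with BC028528 at 1.27 (SE 0.32), Mrps21 at -0.74 (SE 0.16), Anp32e at -0.62 (SE 0.15) and the overlapping Aph1a at -0.40 (SE 0.09). Around Gulo, Pbk at -1.67 (SE 0.25) and Esco2 at -0.81 (SE 0.15) were lower and Ptk2b at 1.91 (SE 0.22) was higher. Around Kcnj13, Ngef at -1.68 (SE 0.48) and Eif4e2 at -0.36 (SE 0.09) were lower and Inpp5d at 1.75 (SE 0.21) was higher, and Ngef lost its call without control 1. Around Slc26a4, 4 were lower, with Prkar2b at -0.91 (SE 0.21), Bcap29 at -0.59 (SE 0.13), Dld at -0.54 (SE 0.13) and Cog5 at -0.27 (SE 0.07), which in limma was at -0.05 and not called (adjusted p = 0.644).

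**Figure D5:**
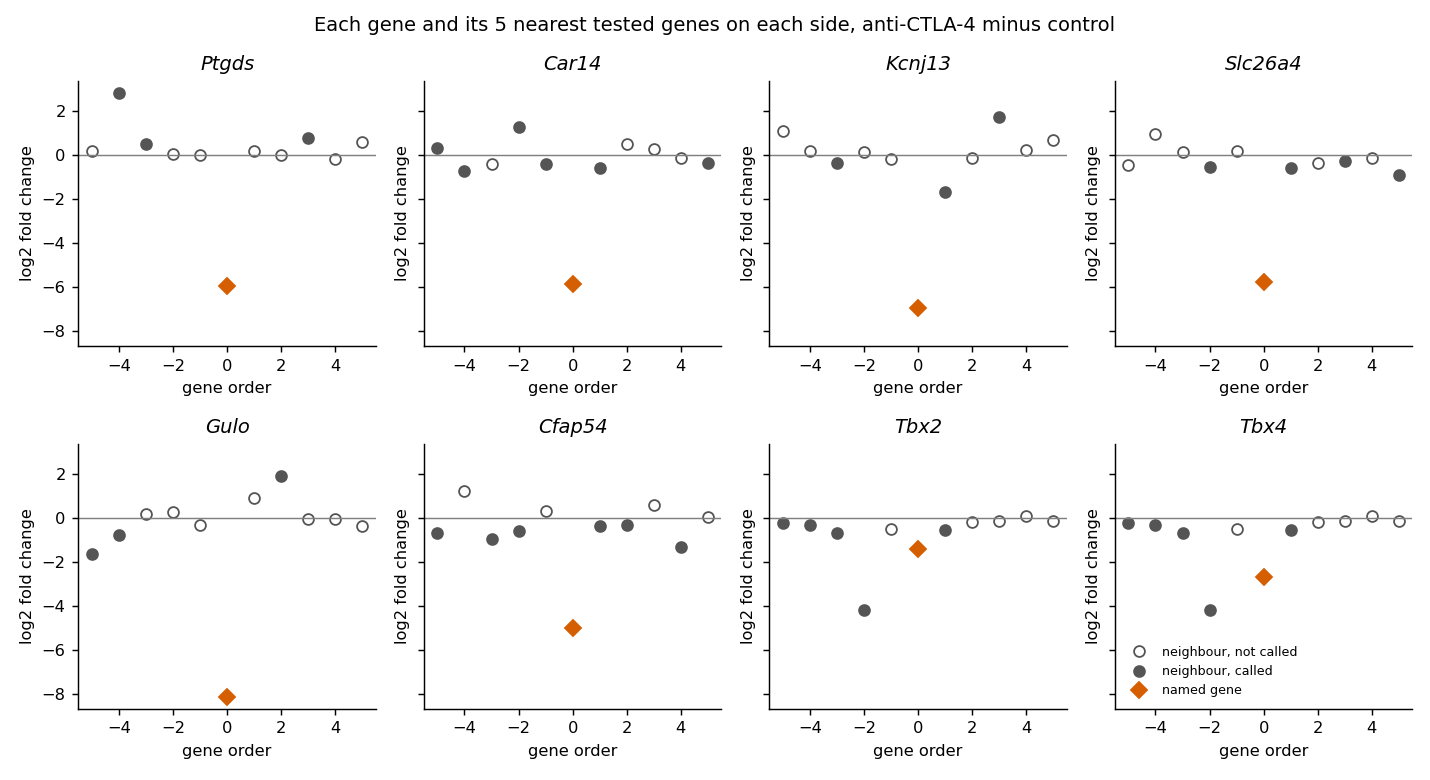
Log2 fold change of all anti-CTLA-4 tumours against controls (vertical axis) for each of the 8 genes (diamond, position 0) and its 5 nearest tested genes on each side in gene order (circles, filled where called). Each diamond lies below its neighbours except those of Tbx2 and Tbx4, where Bcas3os1 is lower.

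The authors' RPKM values (reads per kilobase per M reads) were above 0 in some tumours with 0 counts. Car14 had 0 counts in 3 tumours and Kcnj13 in 5, and in all of these the RPKM was above 0. In responders the RPKM of Car14 ran from 0.691 to 2.35 where the counts gave at most 0.284 CPM per kb, and that of Kcnj13 from 0.364 to 2.2 where the counts gave at most 0.285. For Ptgds, Gulo and Slc26a4 together, 2 of the 26 values with 0 counts had an RPKM above 0. Tbx4, which overlaps no gene on the other strand among its tested neighbours, had 0 counts in responder 1 alone and an RPKM of 0.447 there, where the counts of responders gave at most 0.264 CPM per kb. Whether either table used strand was not given in the sources used here, and the levels of Car14, Kcnj13 and Tbx4 near 0 depend on which table is read.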

How the data were processed

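RNA-seq was deposited for 25 tumours, each labelled with its own animal number. The labels name a total RNA kit in the protocol and polyA RNA as the molecule, and this was not resolved. The submitters' processing notes name bcl2fastq 2.17, Trimmomatic, STAR 2.5.1, RSEM 1.2.22 and the build mm10, with no settings. The authors deposited estimated counts per gene, of which 5.64% of values were not whole. These were rounded, whereas whole counts had been assumed. A table of RPKM, also deposited by the authors, served as an alternative scale. Gene IDs matched GENCODE M21 (55450 of 55450).

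Genes were kept by edgeR's filterByExpr by group (18031 of 55450), scaled by TMM and tested with the quasi-likelihood test of edgeR 4.0.16 (R 4.3.3) on 4 group means from all 25 tumours. P-values were Benjamini-Hochberg adjusted over all tested genes, and a gene was called under 0.05. All anti-CTLA-4 tumours means the equally weighted mean of the 3 treated groups. The slope is on the pigment score (mean log2 CPM, prior count 2, of 13 pigment genes), centred in each group. Correlations used permutations within groups. Poisson intervals are 95%, and a fold against 0 counts used a floor of 3 counts over the group; both cover counting error only. Replicates did not duplicate one another (smallest chi-square per gene 17.2). The procedure was tested on simulated data.

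The genes and all lists were chosen with earlier results of these data known. Besides the 8 genes, the text names the 2 lowest and 2 highest of the pigment and regulator lists, up to 3 called relatives per list and up to 4 called neighbours per gene (mean of at least 1 CPM), and the 3 most alike genes. Alternatives were DESeq2 1.42.0, limma 3.58.1 on log2(RPKM + 1), other size factors, filters, covariates, scores and tumours left out.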

Additional observations from a re-analysis of the deposited data

Results flagged for a closer look

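In 28 groups of 4 to 10 tumours, 1 tumour was tested for standing apart in log2 CPM, by its gap to the nearest other tumour as a share of the group's range. Chance alone marks about 1 group in 20 where values are neither tied nor near 0. That rate need not hold for Kcnj13 in responders, where several libraries held 0 counts. The same applies to Tbx4 in responders, whose lowest library held 0 counts. Kcnj13 was highest in responder 7 (0.362 CPM, gap 0.566 of the range), from 4 counts. Cfap54 was lowest in control 2 (49.1 CPM, gap 0.85), the control with the lowest pigment score, 7.80. Tbx2 was lowest in responder 2 (15.0 CPM, gap 0.586), and Tbx4 was lowest in responder 1 (0 CPM, gap 0.677), the library in which protein-coding genes took 23.8% of counts.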

How the results depend on the processing

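No result that passed its threshold in the main fit or in an alternative changed sign between them. Uncalled differences between responders and stable tumours did change sign on leaving out single tumours. Their log2 values ran from -0.835 to 0.438 for Ptgds, -0.636 to 0.618 for Kcnj13 and -0.233 to 1.011 for Slc26a4. Between responders and stable tumours none of the 4 genes with enough counts was called, where 38.2% of all genes were. DESeq2 called 1 (40.8% of all genes), and 1 of 4 was called with only those groups in the fit (33.1% of all genes). Leaving out single tumours gave 0 to 1 (1 without responder 3, responder 5 or non-responder 6). For the pigment slope 5 of the 8 genes were called (4.05% of all genes, slopes of either sign). In limma 3 of 7 were called (10.7% of all genes), and 0 of 7 without the non-responders (0.0567%). Leaving out single tumours gave 3 to 7 (3 without non-responder 2), with the share of all genes not counted. Of the 70 neighbours 23 were lower, against 43 of 140 with 10 genes on each side, where 23.4% of all genes were lower. The median log2 fold change of the 8 genes was -5.83, against -1.37 in limma, where adding 1 to RPKM compresses low values, and -6.09 to -5.29 on leaving out single tumours. Leaving out responders 1 and 4, whose protein-coding share was under 60%, gave -5.76. That alternative, and the ratios to controls without 1 control, were chosen after seeing the data. No paired analysis was possible because the replicate numbers only name tumours and the labels link no tumour of one group to a tumour of another. Counts near 0 limit what can be told for Gulo, Slc26a4, Kcnj13 and Car14 in responders and stable tumours.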
